A study of Homo sapiens with 16 samples.

Results

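The regions described here are the crowded peaks of 1 chromatin immunoprecipitation sequencing (ChIP-seq) library, the second JARID2 replicate of HepG2. A peak was taken when it lay on chromosome 5, or when its start fell in a 1-Mb window holding 10 or more peaks of the same list. This rule took 752 of the 4075 peaks that the list holds on chromosomes 1 to 22 and X, which is 18.45%. The rule reads peak positions in this list, so every value taken from this list is a description and was not tested. The 752 peaks fell into 5 territories: 465 on the short arm of chromosome 5, 160 on its long arm, 86 in a block on the long arm of chromosome 11, 10 in a window of olfactory receptor genes on chromosome 11, and 31 in single windows of chromosomes 1, 6 and 8.

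HepG2 cells come from a human hepatocellular carcinoma, whereas THLE-2 cells are liver epithelial cells from non-tumour tissue that were immortalised. The series holds JARID2 libraries of both lines, and EZH2 and histone H3 lysine 27 trimethylation (H3K27me3) libraries of THLE-2. Each of these 4 groups has 2 replicates, described by the submitters as biological, and each library was called against its own input chromatin. No treatment or genotype other than the line itself is named, and peak lists do not measure expression, so the identity of the line was not checked with marker genes. The protocol text of HepG2 JARID2 replicate 1 names a JARID2 antibody from Novus Biological. That of replicate 2 carries a general sentence on a target antibody from another supplier, CST, as the 6 THLE-2 IP libraries do, and the tag JARID2. Whether both replicates used the same antibody is not settled by the labels, and this bears on every comparison between them.

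Polycomb repressive complex 2 methylates lysine 27 of histone H3 through its catalytic subunit EZH2, and JARID2 is an accessory subunit that binds DNA and nucleosomes and helps to bring the complex to its sites. The complex is known for holding developmental regulators silent, mostly at CpG-rich gene starts. H3K27me3 is the mark it leaves, often in domains that spread beyond the sites of binding.

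The upstream sequences of the gene starts that a member peak reached are shown first. No share for the other peaks of the list is given by this measure, so no rate is compared. In the RefSeq promoter table (GRCh38.p14), which holds 1 or more starts for each gene it lists, a member peak reached the 250 bases upstream of a start in 5 genes. They are printed 5′ to 3′ on the strand of the gene, with the bases inside the member peak in capitals. They are RNF130 (chr5:180071760-180072009 on the minus strand), which encodes a membrane-anchored ubiquitin ligase, CARD6 (chr5:40841117-40841366 on the plus strand), which encodes a protein with a caspase recruitment domain, and the uncharacterised loci LOC107986414 (chr5:38783045-38783294 on the plus strand), LOC105374686 (chr5:23038767-23039016 on the plus strand) and LOC105376528 (chr11:4666341-4666590 on the plus strand, the first of its listed starts).
RNF130: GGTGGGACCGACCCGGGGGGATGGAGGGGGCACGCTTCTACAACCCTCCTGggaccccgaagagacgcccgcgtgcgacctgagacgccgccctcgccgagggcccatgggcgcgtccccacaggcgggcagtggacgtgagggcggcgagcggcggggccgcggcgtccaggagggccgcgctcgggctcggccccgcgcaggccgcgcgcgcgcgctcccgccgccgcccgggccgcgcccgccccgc
CARD6: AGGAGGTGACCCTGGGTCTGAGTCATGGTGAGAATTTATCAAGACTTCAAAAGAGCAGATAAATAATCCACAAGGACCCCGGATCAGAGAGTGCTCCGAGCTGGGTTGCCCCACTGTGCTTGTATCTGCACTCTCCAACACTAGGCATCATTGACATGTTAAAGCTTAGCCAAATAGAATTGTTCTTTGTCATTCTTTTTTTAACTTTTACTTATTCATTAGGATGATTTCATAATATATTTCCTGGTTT
LOC107986414: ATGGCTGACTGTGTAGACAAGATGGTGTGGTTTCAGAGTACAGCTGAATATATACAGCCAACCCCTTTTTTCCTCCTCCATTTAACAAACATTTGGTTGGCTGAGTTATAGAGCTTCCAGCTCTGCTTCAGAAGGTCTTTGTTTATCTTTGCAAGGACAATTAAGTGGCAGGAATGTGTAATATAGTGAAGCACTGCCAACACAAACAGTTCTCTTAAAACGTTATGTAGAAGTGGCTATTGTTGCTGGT
LOC105374686: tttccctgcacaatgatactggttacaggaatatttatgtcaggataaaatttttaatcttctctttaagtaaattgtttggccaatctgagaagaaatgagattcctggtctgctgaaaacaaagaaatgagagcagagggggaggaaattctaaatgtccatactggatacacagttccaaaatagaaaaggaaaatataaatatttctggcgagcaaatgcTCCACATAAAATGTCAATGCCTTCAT
LOC105376528: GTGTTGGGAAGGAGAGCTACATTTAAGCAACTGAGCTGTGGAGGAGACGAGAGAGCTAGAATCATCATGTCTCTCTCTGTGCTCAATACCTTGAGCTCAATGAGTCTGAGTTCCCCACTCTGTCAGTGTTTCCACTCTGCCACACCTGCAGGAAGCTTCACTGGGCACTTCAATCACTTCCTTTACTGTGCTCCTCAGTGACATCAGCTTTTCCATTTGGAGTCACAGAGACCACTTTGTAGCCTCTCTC
The RNF130 sequence is 82% G and C and holds 43 CpG dinucleotides. The other 4 are 34.8% to 48.8% G and C, with 1 or 2 CpG dinucleotides each. Over all 27195 promoter sequences of the table the median is 58% G and C with 11 CpG dinucleotides. The median of the 102 promoters that lie in clumped windows of chromosome 5 is 45%, against 58.4% for 219 promoters elsewhere on the short arm and 54.8% for 1155 on the long arm.

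All 752 member peaks carry a false discovery rate of 100% in the deposited list, the value MACS, the peak caller, gives when the swap of IP and input yields at least as many peaks. The median false discovery rate is 100% over the whole list too, and in all 4 EZH2 and H3K27me3 lists. It is 1.29% in HepG2 JARID2 replicate 1 and 15.81% and 44.23% in the THLE-2 JARID2 lists. The immunoprecipitated (IP) library of replicate 2 had 14627883 tags (mapped reads left after the peak caller kept 1 per position) and its input 13760057. Over all 8 IP libraries the range was 7945155 to 39047005 tags, the lowest being HepG2 JARID2 replicate 1. Peak counts on the same chromosomes ran from 2081 to 90461 per list, so the same 10 peaks in 1 Mb weigh differently in each list. Width, tags, fold enrichment and score are the authors' values for each peak and are compared only within a list.

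Chromosome 5 held 625 of the 4075 peaks of HepG2 JARID2 replicate 2, a share of 15.34% (95% Wilson interval 14.26 to 16.48, counting error only). Its share in the other 7 lists was 5.38% in HepG2 JARID2 replicate 1, 7.593% and 8.936% for EZH2, 7.708% and 6.944% for H3K27me3, and 6.055% and 7.293% for THLE-2 JARID2. By peaks per 1-Mb window, chromosome 5 was the densest chromosome of HepG2 JARID2 replicate 2, with 3.47 per window, ahead of chromosome 13 with 2.21 and chromosome 1 with 2.15. In HepG2 JARID2 replicate 1 it came in place 14, and in the THLE-2 lists between place 2 and place 13.

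The excess sat on the short arm. No genome file with a centromere was used here, so the arms were divided in the middle of the longest stretch of chromosome 5 with no annotated gene, chr5:45696381-50396191. The short arm held 465 member peaks in 47 windows, or 9.89 per window. The long arm held 160 in 133 windows, or 1.20 per window, close to the 1.22 per window of the 2722 windows that hold no member. The label of clumped peaks therefore does not describe the long arm: 257 of the 625 peaks of chromosome 5 lie in no clumped window, and no long-arm window held more than 4.

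All 23 clumped windows of chromosome 5 lay between 8 and 46 Mb. The first 8 windows of the arm together held 19 peaks. From there the count per window rose and fell: 14 peaks in the window that starts at 8 Mb, 0 in that at 10 Mb, 28 in that at 27 Mb, 4 in that at 31 Mb and 22 in that at 41 Mb. Neighbouring member peaks of the short arm were a median of 44.7 kb apart, with quartiles of 19.8 and 112 kb, and 8 of 464 neighbouring pairs were within 1 kb. The clumps of the short arm are thus made of separate narrow peaks spread over megabases, not of fragments of a few wide ones.

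**Figure D1:**
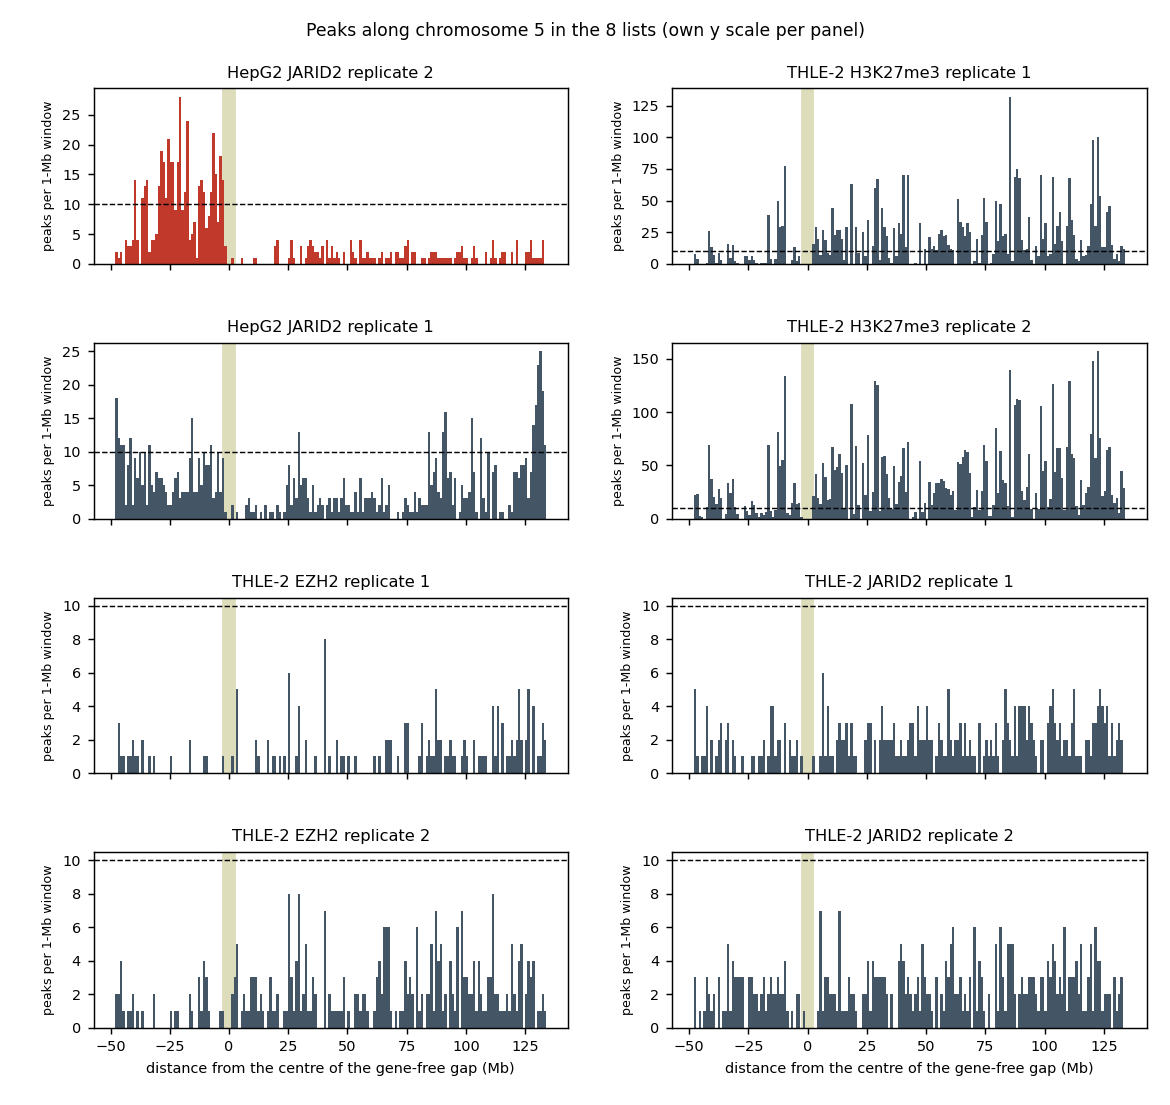
Peaks per 1-Mb window along chromosome 5 in the 8 lists, plotted by distance in Mb from the centre of the gene-free gap (shaded), each panel with its own count axis and a dashed line at 10 peaks. HepG2 JARID2 replicate 2 (red) has 23 windows at 10 or more, all left of the gap, where the EZH2 and THLE-2 JARID2 lists have none.

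HepG2 JARID2 replicate 1, whose positions the rule did not use, had 6.72 peaks per short-arm window and 3.97 per long-arm window. The ratio was 1.69, against 8.22 in replicate 2. Relative to its mean over all windows, replicate 1 stood at 1.25 times on the short arm and 0.736 times on the long arm. In the 23 clumped windows of chromosome 5 it had 5.57 peaks per window, 1.03 times that mean. In the 8 windows below 8 Mb, none of them clumped, it had 9.5, or 1.76 times that mean. The 6 THLE-2 lists all had fewer peaks per window on the short arm than on the long arm: the ratio was 0.434 and 0.364 for EZH2, 0.354 and 0.486 for H3K27me3, and 0.63 and 0.745 for THLE-2 JARID2. With all deposited peaks, both HepG2 libraries thus lay above 1 and all THLE-2 libraries below it. At a score of 100 or more, few THLE-2 JARID2 peaks remain, and the ratio was 0 in replicate 1 and 2.83 in replicate 2. The chromosome 5 share of replicate 2 at that score was 6.977%, with an interval of 3.237 to 14.4%. These 2 ratios therefore do not show a direction. With peaks within 2 kb of a coding gene end left out, a setting chosen after seeing the data, the ratio was 8.398 in HepG2 JARID2 replicate 2 and 1.926 in replicate 1. With equal numbers of top-scoring peaks per list, another such setting, the ratio was 9.365 in replicate 2 and 1.132 in replicate 1. With 1 library chosen by the rule and 1 other of the same line, no test of the lines was made.

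Short-arm peaks of HepG2 JARID2 replicate 1 carried a median of 15 tags and a width of 621 bp, against 12 tags and 594 bp on its long arm. In replicate 2 the same medians were 16 tags and 605 bp against 14 tags and 525.5 bp. The fold enrichment was lower on the short arm in both, 8.705 against 10.35 in replicate 1 and 9.07 against 10.21 in replicate 2. In the THLE-2 JARID2 lists the median tags were 12 and 13 on the short arm and 13 and 14 on the long arm. EZH2 peaks also carried more tags on the short arm, with medians of 212 against 124 in replicate 1 and 92 against 31 in replicate 2, and were wider there (2409 against 1943 bp and 1275 against 798 bp). These EZH2 medians rest on 21 and 37 short-arm peaks. H3K27me3 peaks carried fewer tags on the short arm, 58 against 64 in replicate 1 and 52 against 54 in replicate 2. More tags on the short arm were therefore seen in the HepG2 JARID2 and EZH2 lists, and not in the THLE-2 JARID2 and H3K27me3 lists.

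**Figure D2:**
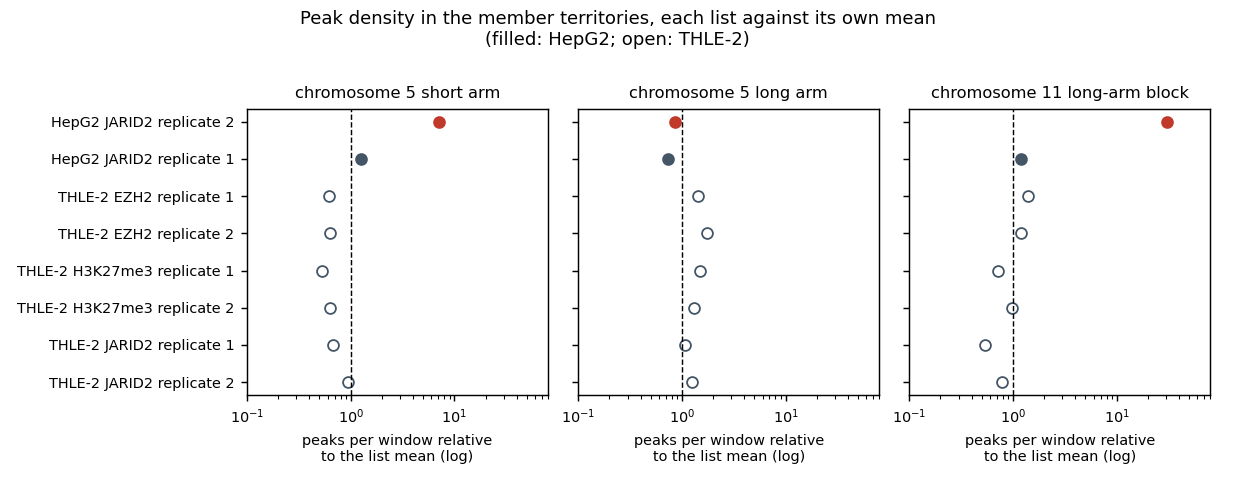
Peaks per 1-Mb window in 3 of the territories for each of the 8 lists, divided by the mean of the same list over all windows (log axis, dashed line at 1). HepG2 libraries are filled and THLE-2 libraries open; replicate 2 of HepG2 JARID2 (red) stands at 7.06 times its mean on the short arm of chromosome 5 and at 30.7 times in the chromosome 11 block, and replicate 1 at 1.25 and 1.2 times.

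The windows of the short arm that crowded in replicate 2 were for the most part not those that crowded in replicate 1. Over the 47 short-arm windows the counts of the 2 HepG2 JARID2 lists had a Spearman correlation of -0.43, and replicate 2 had -0.42 with the number of coding genes that start in the window. Counts against the THLE-2 lists gave correlations from -0.39 to -0.073. These are descriptions over neighbouring windows of single libraries, which share gene content and base composition. The 23 clumped windows had a median of 1 coding gene, against 4 in the other 24 short-arm windows and 4 on the long arm.

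The 29 clumped windows are 0.997% of the 2908 windows of the genome, of which 59.8% hold at least 1 peak of HepG2 JARID2 replicate 2. Every one of them held at least 1 peak of HepG2 JARID2 replicate 1 (88% of all windows do). At the level of 10 or more peaks, 3 of the 29 were also clumped in replicate 1, where 17.9% of all windows are. Those 3 windows start at 12, 37 and 40 Mb of chromosome 5 and held 10, 10 and 11 peaks of replicate 1. No clumped window reached 10 peaks in an EZH2 list (0.138% and 0.309% of all windows do) or in a THLE-2 JARID2 list (0.172% and 0.103%).

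At least 1 peak of EZH2 lay in 8 and 13 of the 29 windows in its 2 replicates (40.9% and 59% of all windows), and at least 1 of H3K27me3 in 22 and 26 (78.1% and 90.1%). THLE-2 JARID2 had at least 1 peak in 16 and 22 of them (72.8% and 78%). Among the THLE-2 targets, EZH2 was most often missing from these windows, as it was from all windows of the genome. This order is therefore not particular to the clumps.

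H3K27me3 was crowded in some of them and all but missing in others. Its replicate 1 list had 10 or more peaks in 8 of the 29 windows and its replicate 2 list in 15, against 46.1% and 66.6% of all windows. The chromosome 5 windows that start at 35, 36 and 37 Mb held 50, 29 and 30 peaks of replicate 1 and 81, 49 and 55 of replicate 2. Those that start at 12, 19 and 20 Mb held none in either. EZH2 had no peak in either replicate in 15 of the 29 windows. The matching share of all windows is not given here, and 40.9% and 59% of all windows hold a peak of each replicate.

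Overlap of single peaks was rarer than sharing of windows. Of the 752 member peaks, 709 overlapped no peak of the other 7 lists by as much as 1 bp, 35 overlapped a peak of 1 list, 6 of 2 lists and 2 of 3 lists. The 43 that overlapped any list are 5.72% of the members (4.27 to 7.61), against 6.99% of all peaks of the list and 7.28% of those that are not members. HepG2 JARID2 replicate 1 overlapped 7 member peaks, or 0.931%, against 1.1% of the list. H3K27me3 overlapped 19 and 20 (2.53% and 2.66%, against 2.99% and 3.95%). EZH2 overlapped 1 in each replicate (0.133%, against 0.172% and 0.27%), and THLE-2 JARID2 overlapped 1 and 4 (0.133% and 0.532%, against 0.196% and 0.442%). Of these shares only that of THLE-2 JARID2 replicate 2 lay above its background, which falls inside its interval of 0.207 to 1.36%. Requiring that a peak of another list cover at least 1 of every 2 bases of the member lowered the 43 to 18, and allowing a distance of 1 kb raised it to 85.

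The 2 member peaks shared by 3 lists differ in kind. The first is the RNF130 peak, chr5:180071959-180072700, which reaches the upstream sequence printed above and had 63 tags and a fold of 9.35. There the fold was 62.87 in HepG2 JARID2 replicate 1, 17.72 in THLE-2 JARID2 replicate 1 and 23.97 in THLE-2 JARID2 replicate 2. All 4 JARID2 libraries thus have a peak at this start, and neither the EZH2 nor the H3K27me3 lists overlap it. The other, chr5:49666059-49667348, lies inside the gene-free gap, with 92 tags and a fold of 5.63. It overlaps HepG2 JARID2 replicate 1 (fold 6.81) and both EZH2 lists (5.13 and 5.07), and each of those 3 peaks encloses it.

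Further members that overlap HepG2 JARID2 replicate 1 include 1 near CDH18 (fold 9.46), 2 neighbouring peaks in CEP126, which encodes a centrosomal protein (3.84 and 3.82), and 1 in ARHGAP42, which encodes a GTPase-activating protein (3.7). The 2 CEP126 peaks meet the same replicate 1 peak. Members of the chromosome 11 block met another list in 15 of 86 cases (17.4%), short-arm members in 13 of 465 (2.8%) and long-arm members in 12 of 160 (7.5%). The peaks of the block were also the widest of the 3 sets by median, and the part of width in these shares was not tested.

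The chromosome 11 block was unlike the rest. It ran from 100210296 to 101985295 (chr11:100210296-101985295), a span of 1.77 Mb, of which 13.8% was covered by 86 peaks. Of 85 neighbouring pairs of peaks there, 18 (21.18%) were within 1 kb, so the 86 are not all well separated. Its peaks had a median width of 2355 bp, 98 tags and a fold of 4.77. Short-arm peaks of chromosome 5 had 605 bp, 16 tags and 9.07, and peaks of the list that are not members had 533 bp, 14 tags and 9.82. The block thus combined wide, tag-rich peaks with a low fold over the local background. Tags per kb of peak differed less, with medians of 39.49 in the block, 27.19 on the short arm and 26.52 in the peaks that are not members.

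These features also mark the chromosome 11 window that starts at 4 Mb, with a median width of 2650 bp, 117 tags and a fold of 4.075 over 10 peaks. Of the 62 peaks of the list wider than 2 kb, 56 were among the 96 members on chromosome 11. Of the 70 with a fold under 5, 57 were there, and of the 53 with 100 or more tags, 47. The 142 peaks of chromosome 11 outside both clumps had a median width of 525 bp and 14 tags, like the list as a whole.

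**Figure D3:**
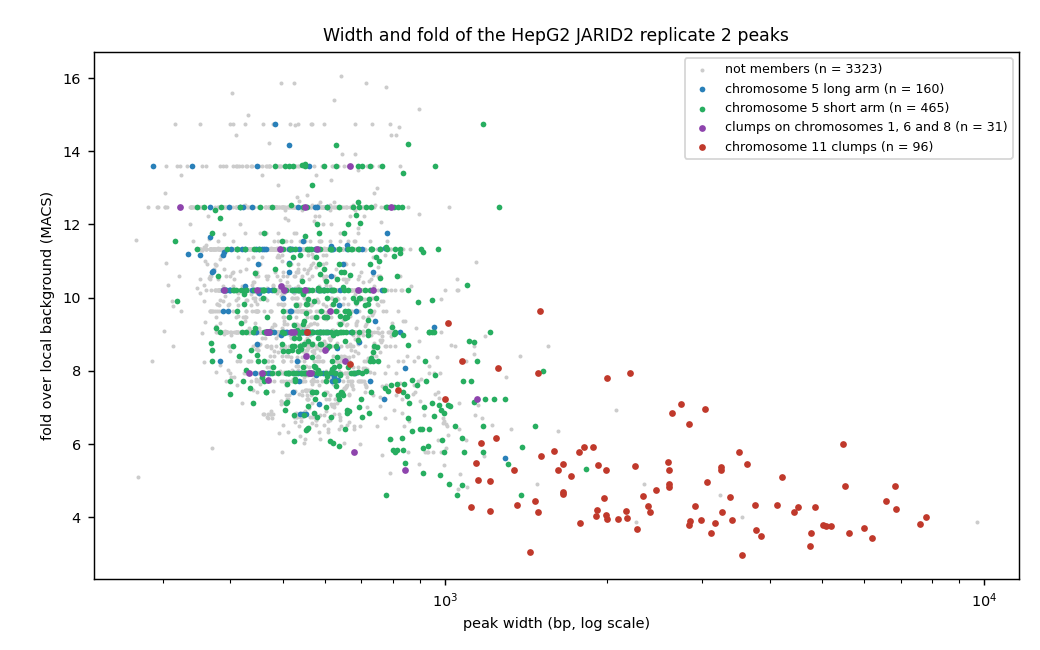
Fold over the local background against peak width (log axis) for the 4075 peaks of HepG2 JARID2 replicate 2, 1 point a peak, coloured by territory. Chromosome 11 members (red) spread to 7790 bp at folds down to 2.98, while the members of chromosome 5 lie within the cloud of the other peaks.

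HepG2 JARID2 replicate 1 had 13 peaks in the 2 windows of the block, 1.2 times its mean per window, so the region was not crowded in its list. Those 13 peaks nevertheless stood apart in their features, which the rule did not use. They had a median of 33 tags (10 to 237), a width of 1013 bp and a fold of 6.49, against 12 tags, 604 bp and 10.3 over its whole list. Their false discovery rates ran from 0 to 2.31%. In the chromosome 11 window at 4 Mb its 6 peaks had a median of 52.5 tags, 1771 bp and a fold of 5.94. The THLE-2 JARID2 lists had 2 and 3 peaks in the same 2 windows, each with 12 tags, beside medians of 13 and 14 over their lists. In the window at 4 Mb they had 1 peak each, with 27 and 12 tags. Set against its own list, each HepG2 JARID2 library thus had wide peaks of many tags in these places, and of the 7 THLE-2 JARID2 peaks there 1 was above the median of its list. EZH2 had 2 and 3 peaks in the block, also tag-rich and wide, with medians of 651 tags against 323 and 250 against 44. Their widths were 3758 bp against 3012 and 2254 bp against 1032. H3K27me3 peaks of the block had fewer tags than their lists, 51 against 66 and 41 against 58. Each HepG2 library was called against an input of the same line, and the tags of the inputs over these regions were not analysed here.

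The peaks on either side of the block differed. The last peak before it lay 216 kb away, with 12 tags and a fold of 12.48. The next peak after it lay 227 kb away inside YAP1, which encodes the transcriptional coactivator of the Hippo pathway, and was 9708 bp wide with 514 tags and a fold of 3.87. It is the widest peak of the list and the one with the most tags, and it is no member because its window holds 1 peak. In that window HepG2 JARID2 replicate 1 had 14 peaks, of which 8 between chr11:102092199 and 102279340 carried 48 to 352 tags. The remaining 6 carried 9 to 16. The THLE-2 JARID2 lists had 3 and 2 peaks in the window, with at most 26 tags. Past the last member of the block, replicate 1 thus had a run of tag-rich peaks through YAP1, and replicate 2 had 1 such peak, which overlaps 1 of them.

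**Figure D4:**
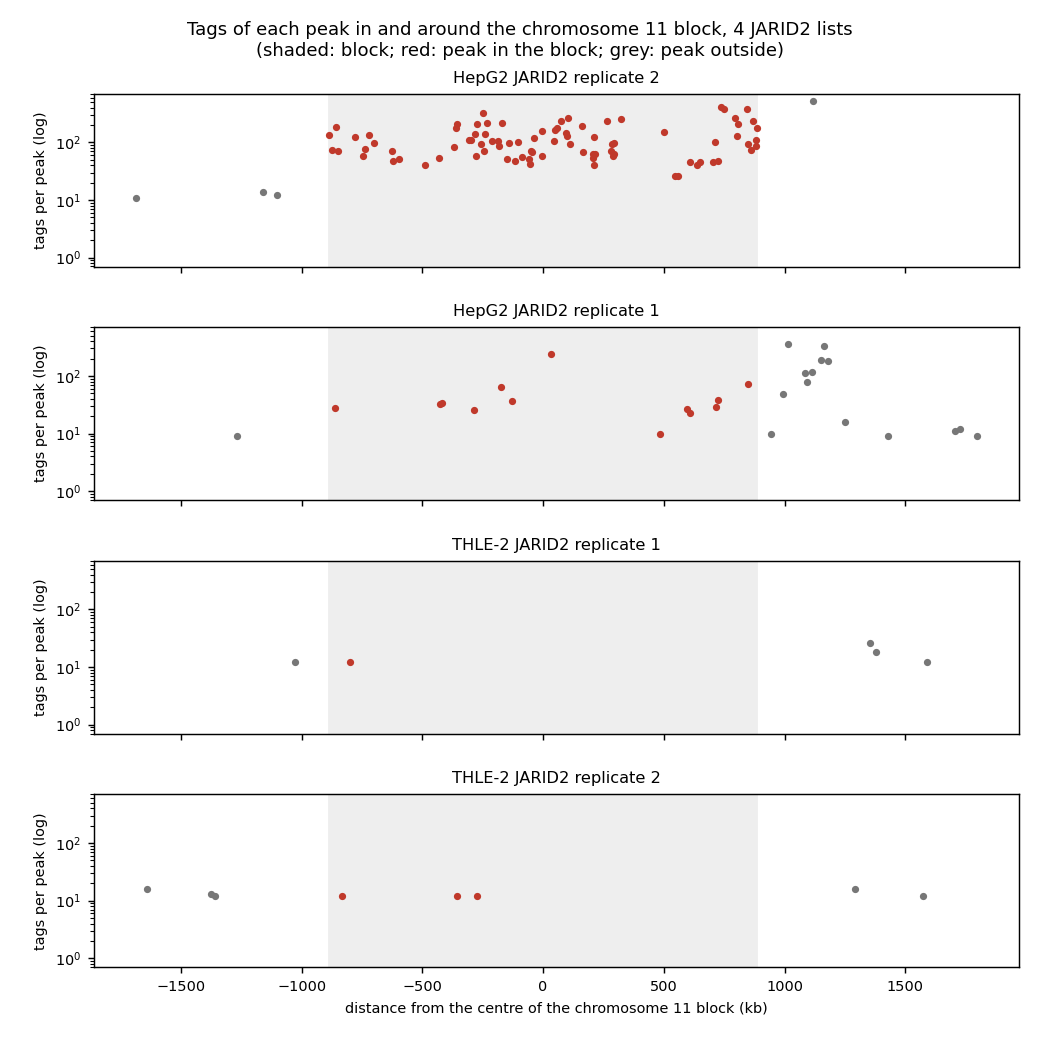
Tags of each JARID2 peak (log axis) by distance in kb from the centre of the chromosome 11 block, in the 4 JARID2 lists; the block, from its first to its last member, is shaded and peaks inside it are red. HepG2 replicate 2 has 86 peaks of 26 to 414 tags in the block, replicate 1 has peaks of up to 237 tags there and up to 352 beyond its right edge, and the THLE-2 peaks there have 12 tags.

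The genes of the block are ARHGAP42 with 21 member peaks, CNTN5, which encodes a neural contactin, with 7, PGR, which encodes the progesterone receptor, with 7, CEP126 with 7, and ANGPTL5, which encodes an angiopoietin-like secreted protein, with 3. ARHGAP42 peaks carried 47 to 322 tags at folds of 2.98 to 7.95. CNTN5 spans 1338 kb and extends beyond the block. A stretch of 174 kb with no member, chr11:101424306-101598666, holds TRPC6, which encodes a cation channel; HepG2 JARID2 replicate 1 had 1 peak there, with 10 tags. H3K27me3 peaks overlapped PGR (6 and 10) but not ARHGAP42, CEP126 or ANGPTL5 (0 in both lists), and EZH2 had 1 peak in PGR in each replicate.

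The window at 4 Mb of chromosome 11 holds 31 coding genes, many of them olfactory receptors, the odorant-sensing receptors of the nose. Its member peaks lay in OR52K1 (2), OR52I2 (1), MMP26, which encodes a matrix metalloproteinase (1), and STIM1, which encodes the calcium sensor of the endoplasmic reticulum (1). The 3 single windows elsewhere had ordinary narrow peaks. On chromosome 1, the window at 163 Mb held 11 peaks, 4 of them in the 33.81 kb of NUF2, which encodes a kinetochore protein, and 2 in RGS5, which encodes a regulator of G protein signalling. On chromosome 6, the window at 20 Mb held 10 peaks, 8 of them in CDKAL1, which encodes an enzyme that modifies transfer RNA. On chromosome 8, the window at 131 Mb held 10, with 2 in EFR3A and 1 in ADCY8, which encodes an adenylyl cyclase. Their median widths were 518, 576 and 538 bp and their median folds 9.07, 8.815 and 9.64.

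These 3 windows lie just inside the threshold. Of all windows, 6 held 10 or 11 peaks, 2 of them on chromosome 5, and 21 held 8 or 9, 3 of them on chromosome 5 and 7 on chromosome 1. The windows with 9 peaks include that of PCDH9, which encodes a protocadherin, on chromosome 13 and that of POM121L12 on chromosome 7. Median tags in the windows with 9 peaks were 13 to 15, and in the windows with 10 or 11 outside the chromosome 11 window they were 13.5 to 18.

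A coding gene body was touched by a member peak in 109 genes, 95 of them among the 903 of chromosome 5 (10.5%), against 6.65% of all 19970 coding genes with any peak of the list. On the short arm 42 of 167 genes were touched (25.1%), on the long arm 53 of 736 (7.2%). The touched short-arm genes were long, with a median of 138 kb against 28.4 kb for the others. Of the 18 coding genes of chromosome 5 that span 500 kb or more, 15 had a member peak. Per Mb, however, the short arm had 9.19 member peaks inside coding genes and 10.2 outside them, and the long arm 1.16 and 1.23. The peaks thus did not favour gene bodies on either arm.

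Of all members, 50.7% lay outside every annotated gene, coding or not, against 39.3% of the other peaks of the list. Ends of coding genes, within 2 kb, held 2.261% of members and 3.671% of the others. Within coding genes lay 30.97% of short-arm peaks, 39.38% of long-arm peaks, 52.33% of the block and 46.58% of the peaks that are not members. In 5 of the 29 clumped windows there was no coding gene at all, among them that at 30 Mb of chromosome 5 with 24 peaks.

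The highest gene counts of the short arm were in 2 long genes of type II cadherins, calcium-dependent adhesion proteins. CDH12 had 24 member peaks over 1103 kb, with 12 to 35 tags and folds of 6.08 to 14.74. CDH18 had 20 over 1104 kb, with folds of 4.62 to 13.61. CDH10 had 3, CDH9 had 2 and CDH6 had 2. In a list of 60 cadherins and protocadherins of chromosome 5, 5 had a member peak: all 5 on the short arm and none of the 55 on the long arm, where the clustered protocadherins lie. In peaks per 100 kb, CDH12 had 2.18 and CDH18 1.81, against 0.989 over the windows of the whole arm. The clumped windows of the arm had 16 per 1 Mb, a length 10 times as great. In density both genes were thus nearer to the clumped windows than to the whole arm. Shorter genes were denser, with 4.42 per 100 kb in PLCXD3 and 3.69 in NIPBL.

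The other lists covered these cadherins differently. CDH12 held 2 peaks of HepG2 JARID2 replicate 1, 9 and 18 of H3K27me3 and none of EZH2 or THLE-2 JARID2. CDH18 held 6 of HepG2 JARID2 replicate 1, 1 and 5 of THLE-2 JARID2 and none of H3K27me3 or EZH2. The window with the most member peaks on chromosome 5, at 27 Mb, lies beside CDH9 and had 28, but 1 of them was in the gene. The windows at 22, 19 and 20 Mb had 21, 19 and 17 members, of which 19, 7 and 13 lay in CDH12 or CDH18. The windows at 23, 24 and 26 Mb had 17 each. The first of them holds PRDM9, which encodes the histone methyltransferase that places meiotic recombination sites, and it had no member peak in that gene.

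Among neuronal genes, CTNND2, which encodes delta-catenin, a partner of cadherins, had 9 member peaks (6.13 to 14.18). ADCY2, which encodes an adenylyl cyclase, had 3, and KCNN2, which encodes a calcium-activated potassium channel, had 1. Of 23 listed neuronal receptors and channels, 4 had a member peak (17.4%), 3 of 5 on the short arm and 1 of 18 on the long arm. The shares over all coding genes are 10.5% on the chromosome, 25.1% on the short arm and 7.2% on the long arm. The listed neuronal genes are also longer, with a median of 102 kb against 37.3 kb for the chromosome. CTNND2 also held 4 peaks of HepG2 JARID2 replicate 1, 4 and 22 of H3K27me3 and 2 and 1 of EZH2.

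Of 24 genes listed as liver genes, 6 were touched (25%), 5 of 10 on the short arm and 1 of 14 on the long arm. The shares over all coding genes are 10.5%, 25.1% and 7.2%. The listed genes had a median length of 49.8 kb, and whether each is expressed in hepatocytes was not checked. GHR, the growth hormone receptor, had 7 member peaks (6.42 to 12 in fold) with 12 to 22 tags. C6, a component of the complement pore, had 3 (9.07 to 10.6), C9 had 1 (9.08) and C7 had 1 (5.32). OXCT1 (7.71) and SLC22A4 on the long arm (8.26) also had 1 each. GHR also held 3 peaks of HepG2 JARID2 replicate 1 and 8 and 15 of H3K27me3.

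Cancer genes were touched in 6 of 27 cases (22.2%), 3 of 7 on the short arm and 3 of 20 on the long arm, beside the same 10.5%, 25.1% and 7.2%. Their median length was 86.1 kb. SKP2, an F-box protein that marks cell cycle inhibitors for degradation, had 2 member peaks (9.21 and 12.48). RICTOR, a subunit of mTOR complex 2, had 2 (6.41 and 10.21), PIK3R1, the regulatory subunit of phosphoinositide 3-kinase, had 2 (7.94 and 9.07), and PPP2R2B, a subunit of protein phosphatase 2A, had 2 (11.24 and 11.34).

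Developmental transcription factors, the classic targets of Polycomb, had 1 of 20 with a member peak (5%), PRDM6, with 2 peaks of fold 10.21. In the same 20 genes EZH2 had a peak in 15 and 13, H3K27me3 in 5 and 16 and HepG2 JARID2 replicate 1 in 11. None of 22 listed immune genes had a member peak. Of these 22, 21 lie on the long arm, and their median length is 15.5 kb, so 0 is not far from the background. Over all 903 coding genes of chromosome 5, a peak was found in 95 for HepG2 JARID2 replicate 2, 313 for replicate 1, 87 and 135 for EZH2, 185 and 263 for H3K27me3 and 156 and 140 for THLE-2 JARID2. Of these 20 genes 17 lie on the long arm, where 7.2% of all coding genes have a member peak, and their median length is 5.94 kb against 37.3 kb for the chromosome, so 1 member is near the background.

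Among the remaining genes with many member peaks, PLCXD3, which encodes a phospholipase-like protein, had 9 in 203.7 kb (13 to 28 tags, folds of 7.61 to 14.2). No peak of HepG2 JARID2 replicate 1, EZH2 or THLE-2 JARID2 replicate 1 overlapped it, and THLE-2 JARID2 replicate 2 had 1. NIPBL, which encodes the loader of cohesin, had 7 (7.71 to 11.54), and WDR70 had 6 (8.67 to 12.48). ADAMTS12, which encodes an extracellular metalloproteinase, had 4, and PRLR, the prolactin receptor, had 4 (6.04 to 7.93). PRLR held 18 and 21 H3K27me3 peaks, NIPBL and WDR70 none. FGF10, which encodes a growth factor of branching organs, had 1 of the 18 member peaks in the window at 44 Mb.

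The 7 member peaks with the highest fold all lay in coding genes of chromosome 5. The peak in CDH12 at chr5:22508647-22509823 had 35 tags and a fold of 14.74, and that in KDM3B, which encodes a histone demethylase, at chr5:138379158-138379641, had 14 tags and the same fold. Next came peaks in PLCXD3 (28 tags, 14.2), CTNND2 (22 tags, 14.18), FSTL4, which encodes a follistatin-like protein (18 tags, 14.18), SPEF2, which encodes a protein of the sperm tail (18 tags, 13.66), and CDH12 again (15 tags, 13.63). Several more share a fold of 13.61, among them a peak 4.21 kb from CDH18 (17 tags). None of these overlapped a peak of another list.

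Many members share their fold with other peaks. The 6 commonest fold values of the list, 7.94, 9.07, 9.63, 10.21, 11.34 and 12.48, are shared by 62.2% of its peaks. They hold 68.1% of the long-arm members and 67.4% of the peaks that are not members, but 35.1% of the short-arm members and 1.16% of the block. Long-arm members thus look like the rest of the list by this measure, as they do in density, while the short arm and the block do not. At a score of 100 or more, 56 peaks of the list remain, of which 25 are members on chromosome 11, 13 are on the short arm and 0 on the long arm.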

How the data were processed

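Peaks were analysed in 8 deposited lists, 1 for each IP library. The submitters' processing notes name cutadapt, Bowtie2 (versions not given in the sources used here), MACS 1.4.2 and the build GRCh38. Per the file headers, MACS called each IP against its own input at a p cutoff of 1e-05. The authors deposited for each peak a tag count, a score of minus 10 times the log10 of p, a fold enrichment and a false discovery rate in percent. Peaks on chromosomes 1 to 22 and X were placed in windows of 1 Mb by their start, among 2908 windows that hold a peak of any list or a gene. Genes came from RefSeq (GRCh38.p14), and overlap meant at least 1 bp. Python 3.11.15, pandas 2.3.3 and numpy 2.4.6 were used, and the counting was tested on simulated data. Intervals are Wilson at 95%.

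The members and the gene lists were chosen with earlier results of these data known. Genes were named by rule: the clumped windows outside chromosome 5, the 10 fullest windows of chromosome 5, the 15 genes with most member peaks, the 10 highest folds, members shared with 3 or more lists or with HepG2 JARID2 replicate 1, up to 4 genes of each list, and RNF130. YAP1, TRPC6, ANGPTL5, CARD6, OXCT1, SLC22A4, the LOC loci, PRDM9, PCDH9 and POM121L12 were named after their values were seen. Every list is 1 library and the members come from 1 list, so no test was made. Some genes that the rule would name are not reported here.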

Additional observations from a re-analysis of the deposited data

How the results depend on the processing

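No paired analysis was possible because the results come from no test. The 752 members became 1420 with 5 peaks per window, 1168 with 2-Mb windows and 29 at a score of 100 or more. They became 711 to 738 with 20 peaks per window, 500-kb windows or windows shifted by 500 kb. The rule keeps all 625 peaks of chromosome 5 at every window setting, so these totals could change only outside it. With 20 peaks per window, only the 86 peaks of the chromosome 11 block remain there. The 29 clumped windows became 147 with 5 peaks, 15 with the 2081 top-scoring peaks of each list and 1 at a score of 100 or more. The share of chromosome 5 rose from 15.34% to 23.21% at that score (interval 14.1 to 35.77) and to 17.4% with equal numbers of peaks. The 43 overlapped members became 18 with 1 of every 2 bases covered, 85 within 1 kb and 14 with the other lists at a score of 100 or more, and 29 to 43 when 1 of the other libraries was left out. Of the 29 clumped windows, 17 had 10 or more peaks of another list. Over all windows, THLE-2 H3K27me3 replicate 2 alone has 10 or more peaks in 66.6%, so 17 of 29 is no excess. The 17 became 7 at that score, and 10 to 17 without 1 library, the lowest without THLE-2 H3K27me3 replicate 2. The 109 genes became 10 with members at a score of 100 or more. The ratio of the short to the long arm was 9.365 with equal numbers of peaks in HepG2 JARID2 replicate 2, and 1.132 in replicate 1; at a score of 100 or more it could not be formed in replicate 2, since the long arm has 0 peaks. The settings for this ratio, and the libraries left out of the count of windows, were chosen after seeing the data. Few members carry many tags, with a median of 16, and counts of 1 library limit every value.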
